A study of Mus musculus with 10 samples.

Results

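Growth factor signalling through receptor tyrosine kinases was examined gene by gene in astrocytes of the mouse ventral midbrain. The genes were the protein-coding entries of the deposited table whose symbols belong to the fibroblast growth factor (FGF), epidermal growth factor (EGF) and neuregulin, insulin-like growth factor (IGF), platelet-derived growth factor (PDGF), vascular endothelial growth factor (VEGF), hepatocyte growth factor (HGF) and angiopoietin families. They numbered 63 of 18464 genes, and the pair of PDGF receptor genes was not analysed here. The libraries were made from polyA RNA of ventral midbrain (ventral tegmental area, substantia nigra pars compacta) from naive Aldh1l1-NuTRAP mice, whose ages the labels do not give. Of 10 libraries, 5 held the astrocyte fraction, which is RNA pulled down on ribosomes tagged in cells that use the Aldh1l1 promoter, and 5 held input RNA of all cell types. Both groups came from the same strain and none of the animals had received drug. Titles number the libraries 88, 92, 976, 981 and 982 in both groups, and values of single libraries are given in that order throughout. The labels do not say whether a number is 1 animal or a pool, so p-values measure the spread between these libraries.

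In these pathways a secreted or membrane-bound ligand binds a receptor that spans the membrane and carries a kinase inside the cell. The receptor then passes the signal to the RAS, PI3 kinase and phospholipase C branches. FGF signalling is known to hold astrocytes in a mature state, EGF receptor signalling to drive their growth, and neuregulins and PDGF to link neurons and glia. VEGF and angiopoietins act mainly on blood vessels. Carriers and binding proteins hold the ligands in the extracellular space and set how much reaches a receptor.

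Library 92 of the astrocyte fraction was shallow, with 3845606 expected counts, while its other 4 libraries held 24479264 to 26924465, and the input libraries 21812264 to 30878914. A count of 0 allows up to 3 counts, which is 0.880 CPM (the TMM-scaled count for each megaread) in that shallow library, 0.120 to 0.136 CPM in the remaining libraries of the astrocyte fraction and 0.0912 to 0.125 CPM in the input. These limits cover counting error only. The listed astrocyte markers were higher in 10 of 10 cases, with a median log2 fold change of 3.09. Lower were 8 of 8 neuron markers (median -2.40), 8 of 8 oligodendrocyte markers (-3.83), 8 of 8 microglia markers (-4.32) and 6 of 6 pericyte and smooth muscle markers (-1.61). Of 8 endothelial markers 3 were lower and 5 not called. The summed choroid plexus and ependymal markers reached 12659 and 2684 CPM in the astrocyte fraction libraries 976 and 982, against 3300.2 and 712 CPM in the input libraries of these numbers, and lay between 115 and 134 CPM and between 27.1 and 42.8 CPM in the other libraries of each group.

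Of the receptor genes in these families, most were higher in the astrocyte fraction. Ligand genes were mostly lower only when genes below a mean of 5 CPM were included. Of 63 genes, 59 passed the filter on low counts, and 23 of these were higher, 25 lower and 11 not called (edgeR quasi-likelihood test, Benjamini-Hochberg adjusted p under 0.05 over all 17672 tested genes). Called genes thus made up 81.4% of the 59, against 70.6% of all tested genes. The share higher was 39.0% against 33.1% of all tested genes, and the share lower 42.4% against 37.5%. The median log2 fold change (astrocyte fraction minus input) was 0.07, close to the -0.06 of all tested genes. The groups did not overlap for 40 of the 59 genes, or 67.8%, against 58.2% of all tested genes. The astrocyte fraction is ribosome-bound RNA and the input is not selected in this way. Expression in astrocytes, RNA carried over from other cell types and this difference in RNA selection cannot be told apart.

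Of 11 receptor genes, 8 were higher, 2 were lower and 1 was not called, and their median log2 fold change was 0.87. The VEGF, angiopoietin and PDGF receptor genes are not among these 11, whereas their ligands are among the ligand genes. The classes are thus not matched. The VEGF receptor genes Flt1, Kdr and Flt4 were lower (log2 fold changes -0.44, -0.71 and -1.11). The angiopoietin receptor gene Tek (-0.18) and its relative Tie1 (-0.40) were not called. Of 29 tested ligand genes, 8 were higher, 16 were lower and 5 did not pass, and their median was -1.29. At 2-fold or more, 5 receptors and 7 ligands were higher and 2 receptors and 15 ligands were lower, where 16.1% of all tested genes were higher and 24.3% lower by that rule. The ligand count rested on low genes. With the filter set to a mean of 5 CPM, 19 ligands were left, and 8 of these were higher and 8 lower around a median of -0.01. Every gene of the deposited table has 5 counts or more throughout the libraries of at least 1 group, so a low ligand could be in it through the input alone. Scaled to total counts, which moved the median of all genes to -0.34, 6 receptors were higher and 3 lower, and 8 ligands were higher and 17 lower. Over the 63 genes the split was 20 higher and 28 lower with that scaling.

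**Figure D1:**
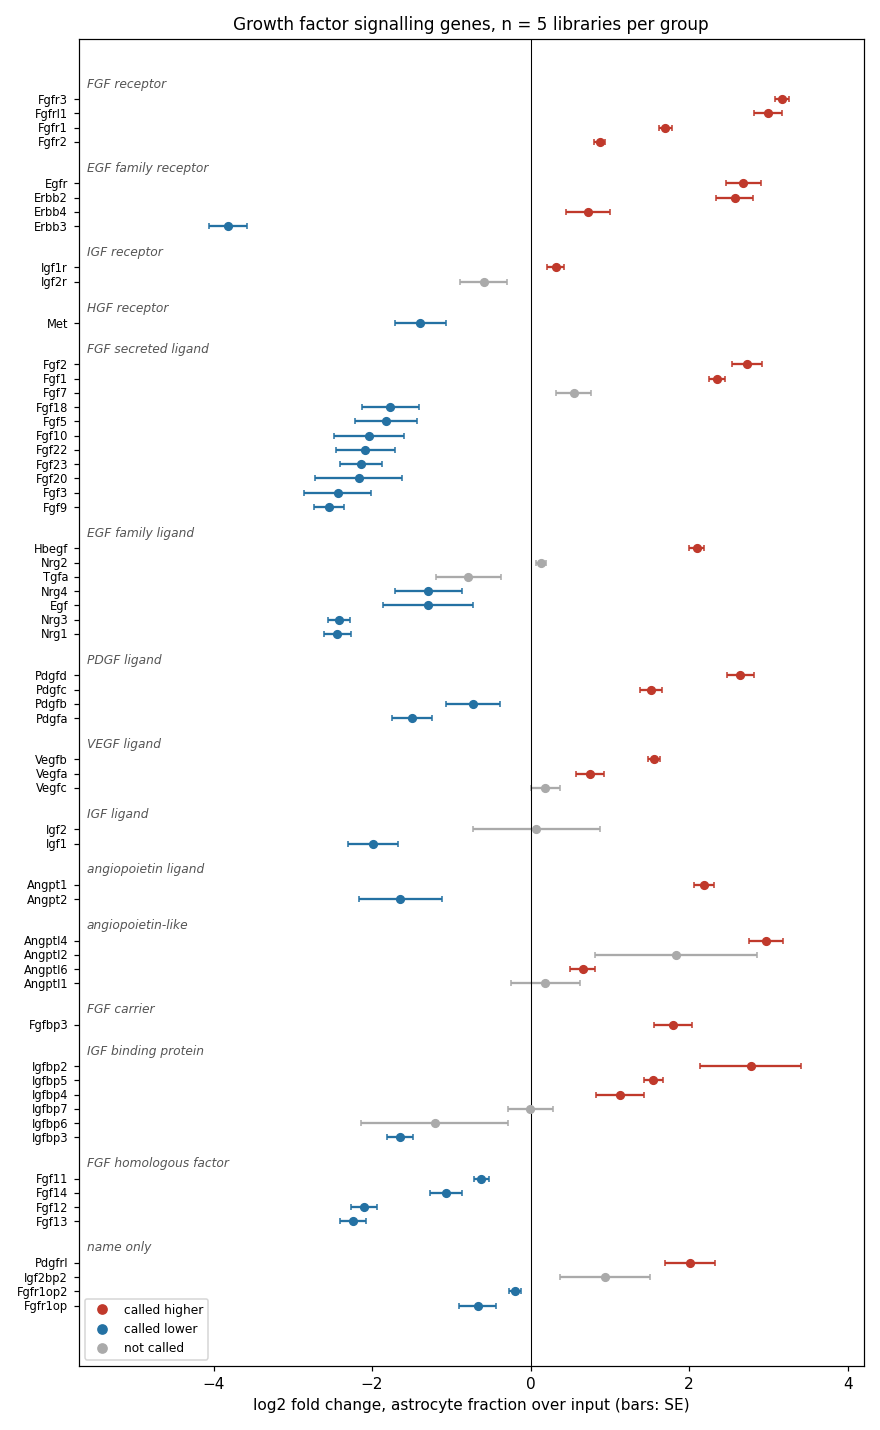
Log2 fold changes (astrocyte fraction over input) of the 59 tested genes, grouped by role, with SE bars from 5 libraries of each group. Fgfr3 stands at 3.17 and Erbb3 at -3.82, the ends of the range, and the 4 FGF receptors all lie right of 0 while 8 of 11 secreted FGF ligands lie left of it.

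All FGF receptor genes of the table were higher in the astrocyte fraction, led by Fgfr3. This gene encodes an FGF receptor kinase known as a mark of astrocytes and their precursors (ENSMUSG00000054252, mm10 chromosome 5, 33721674 to 33737068). It stood at 1564, 1451, 1359, 1678 and 1679.9 CPM in the astrocyte fraction, against 192, 179, 157, 180.4 and 149.6 CPM in the input. Every astrocyte fraction library was above every input library. Its log2 fold change was 3.17 ± 0.09 (SE, edgeR adjusted p = 6.48e-11), or 9.01-fold, and per kb of exon it had the highest mean of the 63 genes in the astrocyte fraction (216 ± 19.7 CPM per kb in the astrocyte fraction and 23.97 ± 2.46 CPM per kb in the input, SD, n = 5 each). In the astrocyte fraction libraries 976 and 982, Igfbp2 stood above it, at 401 and 251 CPM per kb, where Fgfr3 had 189.9 and 235 CPM per kb. Of its exon bases, 13.9% are shared with G630022F23Rik on the opposite strand, and counts of overlapping genes are uncertain because no strand setting is stated.

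Fgfrl1, which encodes an FGF receptor without the kinase part (ENSMUSG00000008090, mm10 chromosome 5, 108692382 to 108706924), stood at 129, 98.9, 137, 108 and 156 CPM in the astrocyte fraction, against 14.7, 13.8, 20.9, 12.3 and 16.8 CPM in the input. The groups did not overlap, at a log2 fold change of 3.0 ± 0.18 (SE, edgeR adjusted p = 4.58e-09). Fgfr1, the receptor gene expressed by both neurons and glia (ENSMUSG00000031565, mm10 chromosome 8, 25513654 to 25575718), stood at 292, 286, 306, 339.6 and 363 CPM in the astrocyte fraction, against 103, 88.1, 102, 103 and 90.8 CPM in the input. It was 3.25-fold higher, a log2 fold change of 1.70 ± 0.08 (SE, edgeR adjusted p = 1.86e-09), again with no overlap. Fgfr2 encodes the fourth member of the group, a kinase receptor also known from oligodendrocytes (ENSMUSG00000030849, mm10 chromosome 7, 130162451 to 133123350), and stood at 121, 139, 127, 127 and 136 CPM in the astrocyte fraction, against 71.5, 70.1, 80.2, 61.9 and 71.6 CPM in the input. Its rise was the smallest of the 4, a log2 fold change of 0.87 ± 0.07 (SE, edgeR adjusted p = 4.25e-07), with no overlap between groups. Fgfr4 was not analysed here.

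The start regions of the receptor genes with the largest and the smallest rise differed in base composition, and 3 of them are shown. Each covers 250 bases before to 50 after the gene's start (RefSeq, GRCm38.p6, the most upstream start listed), and Fgfr1 had no entry. The deposited gene models of Fgfr2 and Fgfrl1 begin further upstream than these starts. The capitals mark the GC box GGGCGG on either strand, a site of SP1-type factors.

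Fgfr3 (chr5:33721474-33721773, plus strand): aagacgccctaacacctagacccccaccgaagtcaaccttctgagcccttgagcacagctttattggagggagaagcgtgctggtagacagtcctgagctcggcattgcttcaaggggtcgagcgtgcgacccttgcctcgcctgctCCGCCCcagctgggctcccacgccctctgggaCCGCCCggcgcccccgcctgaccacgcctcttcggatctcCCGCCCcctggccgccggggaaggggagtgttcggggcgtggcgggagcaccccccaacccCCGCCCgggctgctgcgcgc

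Fgfrl1 (chr5:108693979-108694278, plus strand): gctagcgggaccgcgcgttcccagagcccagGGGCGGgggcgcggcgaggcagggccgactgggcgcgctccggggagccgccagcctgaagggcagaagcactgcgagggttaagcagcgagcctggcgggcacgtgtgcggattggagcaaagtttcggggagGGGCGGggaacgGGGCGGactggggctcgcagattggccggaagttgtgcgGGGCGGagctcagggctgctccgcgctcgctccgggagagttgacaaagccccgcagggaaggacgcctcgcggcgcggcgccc

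Fgfr2 (chr7:130266759-130267058, minus strand): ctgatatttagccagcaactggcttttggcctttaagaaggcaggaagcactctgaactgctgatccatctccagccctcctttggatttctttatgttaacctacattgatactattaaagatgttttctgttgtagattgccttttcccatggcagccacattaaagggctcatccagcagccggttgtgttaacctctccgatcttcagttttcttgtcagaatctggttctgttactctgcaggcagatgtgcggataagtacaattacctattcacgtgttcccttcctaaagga

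Fgfr3 and Fgfrl1 each held 4 GC boxes in windows of 69.7% and 73.7% GC, whereas the Fgfr2 window had 0 and 43.7% GC. This contrast did not extend to other receptor genes. Igf1r, with a smaller rise (log2 fold change 0.32), held 2 at 76% GC, and Erbb2, with a larger rise (2.57), held 0 at 66% GC. A GC box was present in 35.9% of all 27025 promoter windows of this length. Among the 48 genes with an entry, it was present in 8 of 17 that were higher and 9 of 19 that were lower, 47.1% and 47.4%. The TATA box TATAAA was in 3 of 17 and 1 of 19 of these windows, against 14.2% of all, and the NFI site TTGGCA in 1 of 17 and 0 of 19, against 14.4% of all. The motifs were searched on both strands and none contains another, and a match of letters is not a measured site.

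Of the secreted FGF ligands only Fgf1 and Fgf2 passed the test as higher, and 8 of 11 tested were lower. When a mean of 5 CPM was required, 5 were tested, of which 2 were higher and 3 lower, so most of the lower ones had low counts. Fgf1 encodes an FGF that lacks a classical signal peptide and can bind all FGF receptors. It stood at 586, 674, 464, 644 and 581 CPM in the astrocyte fraction, against 124, 113, 118, 111 and 110.3 CPM in the input. The groups did not overlap, with a log2 fold change of 2.35 ± 0.10 (SE, edgeR adjusted p = 3.55e-10), or 5.11-fold. Fgf2, the basic FGF gene, whose product also lacks such a signal (ENSMUSG00000037225, mm10 chromosome 3, 37348346 to 37410108), stood at 53.6, 31.1, 28.5, 50.4 and 34.3 CPM in the astrocyte fraction, against 6.43, 5.71, 5.53, 6.24 and 5.70 CPM in the input. All astrocyte fraction values lay above all input values, at a log2 fold change of 2.73 ± 0.19 (SE, edgeR adjusted p = 2.38e-08). Of the Fgf2 exon bases, 9.44% are shared with Nudt6 on the opposite strand and 3.76% with Gm43439 on the same strand.

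Fgf9, whose product is a growth factor for glia made largely by neurons (ENSMUSG00000021974, mm10 chromosome 14, 58070547 to 58112720), stood at 5.18, 4.40, 6.34, 3.81 and 5.56 CPM in the astrocyte fraction, against 24.5, 30.8, 35.3, 22.99 and 37.7 CPM in the input. It was lower by a log2 fold change of -2.54 ± 0.19 (SE, edgeR adjusted p = 4.52e-08). Fgf22, which encodes an organiser of excitatory nerve endings, stood at 1.67, 0.587, 2.27, 2.05 and 2.80 CPM in the astrocyte fraction, against 7.58, 10.2, 8.11, 9.27 and 8.92 CPM in the input. On the log2 scale the difference was -2.08 ± 0.38 (SE, edgeR adjusted p = 5.76e-06). Fgf18 encodes a ligand of bone and brain development, and stood at 1.06, 0.587, 2.79, 1.50 and 1.54 CPM in the astrocyte fraction, against 5.03, 4.80, 7.22, 5.11 and 6.05 CPM in the input. It was lower by a log2 fold change of -1.77 ± 0.36 (SE, edgeR adjusted p = 0.000129). Fgf10, which encodes a ligand of the epithelial form of FGFR2, stood at 1.47, 0.587, 3.11, 1.67 and 2.85 CPM in the astrocyte fraction, against 6.96, 5.65, 11.2, 9.31 and 10.98 CPM in the input. The log2 difference was -2.04 ± 0.45 (SE, edgeR adjusted p = 7.48e-05). In none of these 4 genes did the groups overlap, and the shallow astrocyte fraction library 92 held the lowest value for 3 of them.

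The other lower secreted FGFs were close to the detection limit. Fgf5, known for ending hair growth, had 4, 2, 11, 11 and 3 counts in the astrocyte fraction, against 27, 37, 46, 46 and 34 counts in the input. This was a log2 difference of -1.82 ± 0.39 (SE, edgeR adjusted p = 0.000577). Fgf20, whose product is a survival factor of dopamine neurons in culture, had 7, 0, 3, 12 and 8 counts in the astrocyte fraction, against 57, 77, 42, 38 and 25 counts in the input, with a log2 fold change of -2.17 ± 0.55 (SE, edgeR adjusted p = 0.00021). Fgf3, a gene of inner ear development, had 2, 0, 0, 2 and 6 counts in the astrocyte fraction, against 36, 24, 31, 15 and 26 counts in the input. Fgf23, which encodes the phosphate hormone of bone, had 2, 0, 2, 0 and 0 counts in the astrocyte fraction, against 17, 14, 16, 9 and 10 counts in the input. The log2 fold changes were -2.43 ± 0.42 (SE, edgeR adjusted p = 0.000218) for Fgf3 and -2.14 ± 0.27 (SE, edgeR adjusted p = 0.000208) for Fgf23. Zero counts in single libraries make these values depend on the prior count, and DESeq2 gave -3.16 and -3.42. Fgf20 shares 12.04% of its exon bases with Micu3 on the opposite strand. Fgf7, whose product acts at inhibitory synapses, averaged 2.58 ± 0.873 CPM in the astrocyte fraction and 1.79 ± 0.272 CPM in the input (SD, n = 5 each) and was not called (log2 fold change 0.55 ± 0.22 SE, edgeR adjusted p = 0.0603). It was higher at all 5 numbers, and it was called by DESeq2 (adjusted p = 0.0468) and without the astrocyte fraction libraries 88, 92 or 981 (0.0467, 0.0275 and 0.0477).

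**Figure D2:**
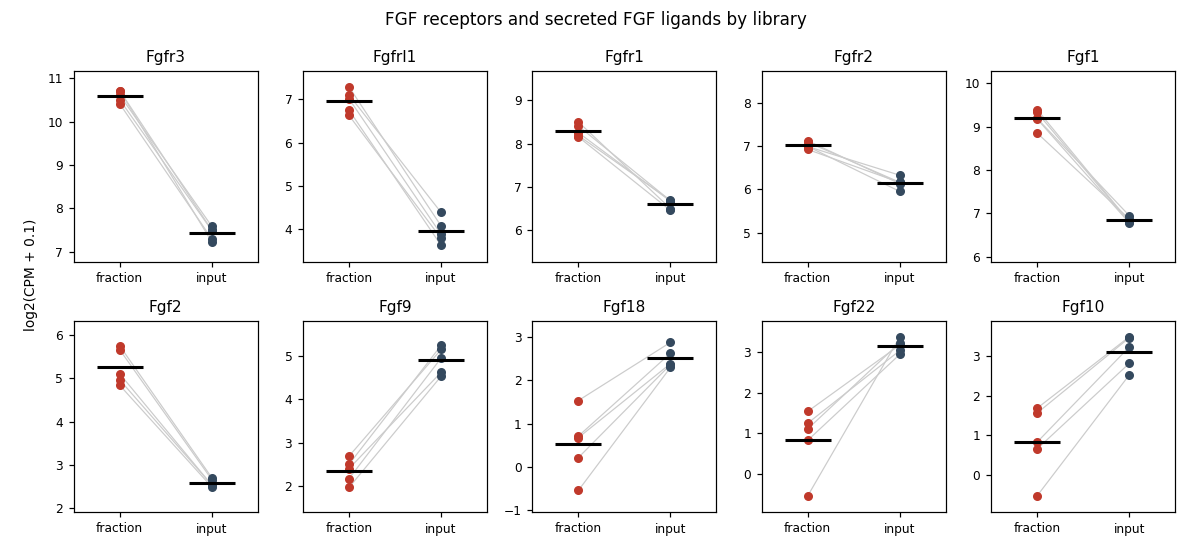
log2(CPM + 0.1) of the 4 FGF receptor genes and 6 secreted FGF ligand genes in each library, with the astrocyte fraction on the left, the input on the right, grey lines joining libraries of the same number and black bars at the means. The groups do not overlap in any of the 10 panels, as in 58.2% of all tested genes, and Fgf7, whose groups overlap, is not drawn. The astrocyte fraction is above the input in the first 6 genes and below it in Fgf9, Fgf18, Fgf22 and Fgf10.

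All 4 genes of FGF homologous factors were lower. These proteins resemble FGFs but stay inside the cell, where they bind voltage-gated sodium channels, mainly in neurons. Fgf13 stood at 18.2, 26.4, 20.9, 28.01 and 23.7 CPM in the astrocyte fraction, against 96.2, 128, 90.00, 136 and 98.9 CPM in the input, a log2 fold change of -2.24 ± 0.16 (SE, edgeR adjusted p = 2.87e-08). Fgf12 stood at 21.9, 34.3, 17.1, 24.2 and 23.01 CPM in the astrocyte fraction, against 91.2, 112, 95.05, 104 and 102 CPM in the input, with a log2 fold change of -2.10 ± 0.17 (SE, edgeR adjusted p = 3.38e-08). Both showed no overlap between groups, and they fell 4.71-fold and 4.29-fold, where the neuron markers had a median log2 fold change of -2.40. Fgf14 stood at 8.32, 11.7, 5.38, 10.7 and 9.13 CPM in the astrocyte fraction, against 21.7, 18.9, 16.7, 17.96 and 18.2 CPM in the input, a smaller drop with a log2 fold change of -1.07 ± 0.20 (SE, edgeR adjusted p = 0.000127). Fgf11 averaged 24.4 ± 2.52 CPM in the astrocyte fraction and 37.7 ± 3.59 CPM in the input (SD, n = 5 each) and fell by 0.62 on the log2 scale (adjusted p = 9.00e-05). The part of neuronal RNA in these values was not tested. The carrier gene Fgfbp3, whose product releases FGFs from the matrix, moved the other way and stood at 23.6, 16.1, 16.1, 29.1 and 22.4 CPM in the astrocyte fraction, against 6.90, 3.83, 6.63, 7.69 and 5.95 CPM in the input. Its log2 fold change was 1.79 ± 0.24 (SE, edgeR adjusted p = 5.29e-06), with no overlap.

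Among the EGF family receptors, Egfr, Erbb2 and Erbb4 were higher and Erbb3 was lower. Egfr encodes the EGF receptor (ENSMUSG00000020122, mm10 chromosome 11, 16752203 to 16918158) and stood at 75.2, 87.2, 43.4, 82.3 and 65.8 CPM in the astrocyte fraction, against 13.1, 12.2, 7.89, 10.9 and 10.4 CPM in the input. No values overlapped, and it was 6.42-fold higher, a log2 fold change of 2.68 ± 0.22 (SE, edgeR adjusted p = 7.04e-08). Erbb2, whose protein binds no known ligand and pairs with the other receptors (ENSMUSG00000062312, mm10 chromosome 11, 98412470 to 98437716), stood at 17.1, 17.02, 14.95, 15.99 and 13.9 CPM in the astrocyte fraction, against 3.08, 1.58, 3.46, 1.75 and 3.01 CPM in the input. It was 5.95-fold higher with no overlap, a log2 fold change of 2.57 ± 0.23 (SE, edgeR adjusted p = 2.44e-07). Erbb4, a receptor gene for neuregulins and HB-EGF that is also known from interneurons (ENSMUSG00000062209, mm10 chromosome 1, 68032186 to 69108059), stood at 78.4, 80.1, 58.02, 109.6 and 69.3 CPM in the astrocyte fraction, against 59.00, 51.2, 31.3, 66.99 and 31.2 CPM in the input. It was higher at all 5 numbers while the groups overlapped, with a log2 fold change of 0.72 ± 0.28 (SE, edgeR adjusted p = 0.0201). That call was lost when libraries were scaled to total counts (log2 fold change 0.43, adjusted p = 0.120).

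Erbb3 encodes a neuregulin receptor with a weak kinase, known from Schwann cells and oligodendrocytes (ENSMUSG00000018166, mm10 chromosome 10, 128567523 to 128589652). It stood at 1.55, 1.17, 1.99, 0.812 and 2.13 CPM in the astrocyte fraction, against 22.8, 24.2, 22.00, 25.4 and 22.6 CPM in the input. The astrocyte fraction values lay far below those of the input, a log2 fold change of -3.82 ± 0.24 (SE, edgeR adjusted p = 4.78e-09), or 14.1-fold lower, the largest drop of the 59 genes. The oligodendrocyte markers moved in the same direction, with summed levels of 979 to 1364 CPM in the astrocyte fraction and 6585 to 7962 CPM in the input, and no marker at 0 in either group. Their part in the Erbb3 value was not tested.

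Of 7 EGF family ligands, 1 was higher, 4 lower and 2 not called. Hbegf, which encodes heparin-binding EGF, a ligand of EGFR and ERBB4, stood at 60.5, 86.3, 73.7, 65.3 and 78.6 CPM in the astrocyte fraction, against 16.9, 17.02, 17.9, 15.8 and 17.1 CPM in the input. It was 4.27-fold higher with no overlap, a log2 fold change of 2.09 ± 0.10 (SE, edgeR adjusted p = 1.17e-09). Nrg1 and Nrg3 encode neuregulins, ligands of ERBB4 and, for NRG1, of ERBB3. Nrg1 stood at 2.45, 3.52, 2.19, 1.88 and 1.90 CPM in the astrocyte fraction, against 13.1, 12.3, 12.7, 11.1 and 13.8 CPM in the input, a log2 fold change of -2.44 ± 0.17 (SE, edgeR adjusted p = 4.25e-08). Nrg3 stood at 5.43, 3.81, 5.18, 5.30 and 5.15 CPM in the astrocyte fraction, against 21.4, 33.4, 25.9, 28.3 and 28.6 CPM in the input, a log2 fold change of -2.41 ± 0.14 (SE, edgeR adjusted p = 5.08e-09). Both fell more than 5-fold with no overlap between groups, and both are known from neurons, whose markers had a median log2 fold change of -2.40. Whether neuronal RNA accounts for these values was not tested.

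Nrg4, the gene of a further neuregulin, was near the detection limit with 5, 0, 7, 4 and 1 counts in the astrocyte fraction, against 13, 24, 13, 10 and 17 counts in the input. Its log2 fold change was -1.29 ± 0.42 (SE, edgeR adjusted p = 0.00505), and the call was lost without the numbers 976 and 982 (adjusted p = 0.0511). Egf itself had 7, 2, 33, 2 and 14 counts in the astrocyte fraction, against 48, 44, 75, 24 and 32 counts in the input. In CPM this was 0.0855 to 1.32 in the astrocyte fraction and 0.998 to 2.76 in the input, so the groups overlapped. The log2 fold change was -1.29 ± 0.57 (SE, edgeR adjusted p = 0.0329), and the call was lost without the input library 976 (adjusted p = 0.0945) or the astrocyte fraction libraries 88, 981 or 982 (0.0827, 0.0587 and 0.0589). With neither 976 nor 982 in the fit, its log2 fold change was -2.04 (adjusted p = 0.00529).

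Nrg2 averaged 10.4 ± 0.811 CPM in the astrocyte fraction and 9.50 ± 0.609 CPM in the input (SD, n = 5 each), a log2 fold change of 0.13 ± 0.07 (SE, edgeR adjusted p = 0.298). Tgfa, which encodes an EGF receptor ligand, stood at 14.8, 9.68, 49.7, 15.7 and 16.8 CPM in the astrocyte fraction, against 40.1, 32.6, 48.1, 29.3 and 39.2 CPM in the input. Without the astrocyte fraction library 976, where the value was about the same as in its input, all astrocyte fraction values were below all input values. It was not called in all 10 libraries (log2 fold change -0.79 ± 0.41 SE, edgeR adjusted p = 0.0908), but was called as lower when that library was left out (-1.28, adjusted p = 3.07e-05) and with title numbers blocked (-0.98, adjusted p = 0.0063).

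**Figure D3:**
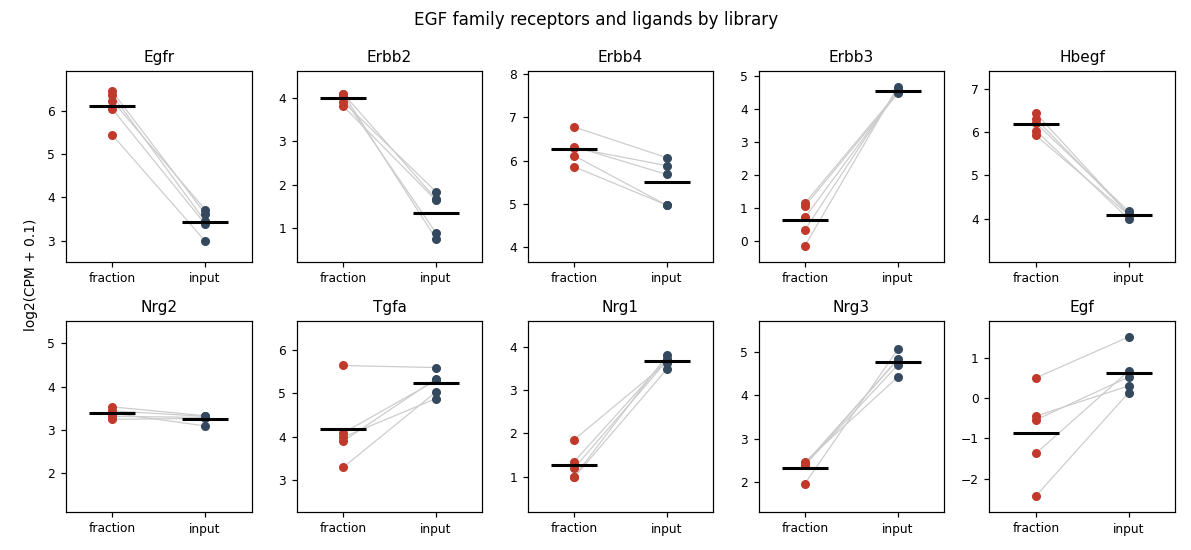
log2(CPM + 0.1) of 4 EGF family receptor genes and 6 ligand genes in each library, drawn with the astrocyte fraction on the left, the input on the right, grey lines joining libraries of the same number and black bars at the means. Egfr, Erbb2 and Hbegf are higher without overlap, Erbb3, Nrg1 and Nrg3 lower without overlap, and Tgfa shows 1 astrocyte fraction library, 976, at the level of the input.

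IGF signalling had 1 ligand lower, its main receptor slightly higher and 3 of 6 binding proteins higher. Igf1 encodes a growth factor that microglia and some neurons make in brain (ENSMUSG00000020053, mm10 chromosome 10, 87858265 to 87937042), and stood at 2.57, 7.04, 2.55, 2.31 and 3.35 CPM in the astrocyte fraction, against 10.3, 17.7, 11.3, 12.8 and 12.99 CPM in the input. All astrocyte fraction values were below the input, with a log2 fold change of -1.99 ± 0.32 (SE, edgeR adjusted p = 2.44e-05). The astrocyte fraction library 92 had the highest value of its group, from 24 counts. Microglia markers summed to 13.5 CPM in that library, the lowest of its group. Their range was 13.5 to 19.9 CPM in the astrocyte fraction, against 315 to 433 CPM in the input. Neuron markers summed to 1455 CPM in the same library, the highest of its group. Their range was 1026 to 1455 CPM in the astrocyte fraction, against 5422 to 6476 CPM in the input. The part of either cell type in the Igf1 value was not tested. Igf2, the gene of the fetal growth factor that meninges and choroid plexus keep making, stood at 58.8, 16.1, 56.02, 4.49 and 28.03 CPM in the astrocyte fraction, against 30.2, 16.6, 75.7, 15.1 and 20.6 CPM in the input. The groups overlapped and it was not called (log2 fold change 0.07 ± 0.80 SE, edgeR adjusted p = 0.934). Of its exon bases, 62.8% are shared with other gene models on the same strand, among them Gm49394, so its count is uncertain.

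Igf1r encodes the receptor of both IGFs and stood at 89.6, 115, 114, 106 and 101 CPM in the astrocyte fraction, against 78.7, 102, 82.3, 74.3 and 83.9 CPM in the input. It was higher at all 5 numbers with overlapping groups, a log2 fold change of 0.32 ± 0.10 (SE, edgeR adjusted p = 0.0117), and this call was lost with scaling to total counts (0.03, adjusted p = 0.769). Igf2r, whose product clears IGF2 and sorts lysosomal enzymes, stood at 21.01, 13.8, 45.98, 19.6 and 25.1 CPM in the astrocyte fraction, against 39.6, 43.4, 38.6, 41.3 and 30.2 CPM in the input. The astrocyte fraction library 976 was above all input libraries, and the other 4 were below them all. It was not called over all libraries (log2 fold change -0.59 ± 0.30 SE, edgeR adjusted p = 0.0572), but was called in 9 of 18 alternatives, among them without that library (-0.84, adjusted p = 0.000432) and with the block (-0.67, adjusted p = 0.0485).

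The IGF binding proteins hold IGFs outside the cell. Igfbp2 encodes a binding protein known from astrocytes and choroid plexus (ENSMUSG00000039323, mm10 chromosome 1, 72824503 to 72852474), and stood at 210.5, 234, 741, 144 and 464 CPM in the astrocyte fraction, against 32.3, 33.98, 124, 16.6 and 55.4 CPM in the input. The groups did not overlap, but both were highest in number 976 and next highest in 982, the numbers with choroid plexus transcripts. Its log2 fold change was 2.78 ± 0.64 (SE, edgeR adjusted p = 0.00447). This value was 2.92 (adjusted p = 0.000155) without both numbers and 3.38 (adjusted p = 0.00119) without the input library 976. Igfbp5 stood at 481, 612, 449, 577 and 523 CPM in the astrocyte fraction, against 154, 219, 162, 188 and 177 CPM in the input. This abundant gene rose with no overlap, a log2 fold change of 1.55 ± 0.12 (SE, edgeR adjusted p = 5.35e-08).

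Igfbp4 stood at 43.7, 31.1, 37.6, 22.9 and 48.5 CPM in the astrocyte fraction, against 20.3, 10.03, 23.7, 12.2 and 18.1 CPM in the input. It was higher at all 5 numbers with a slight overlap, a log2 fold change of 1.13 ± 0.30 (SE, edgeR adjusted p = 0.00183). Igfbp3 was the binding protein that fell and stood at 3.30, 2.35, 2.43, 2.57 and 1.85 CPM in the astrocyte fraction, against 8.14, 7.87, 7.04, 10.3 and 6.94 CPM in the input, a log2 fold change of -1.65 ± 0.16 (SE, edgeR adjusted p = 5.80e-06) without overlap. Igfbp7, known from blood vessels, averaged 16.1 ± 7.27 CPM in the astrocyte fraction and 16.4 ± 3.23 CPM in the input (SD, n = 5 each) and was not called (adjusted p = 0.989, with the sign of the change differing between settings). Igfbp6 averaged 0.927 ± 0.800 CPM in the astrocyte fraction and 2.52 ± 1.66 CPM in the input and was lower at all 5 numbers, with a log2 fold change of -1.21 ± 0.93 (SE, edgeR adjusted p = 0.0672). It was called with the block (-1.27, adjusted p = 0.00542), by DESeq2 (adjusted p = 0.0295), with scaling to total counts (0.0324) and without the astrocyte fraction library 88 (0.0222) or the input library 981 (0.0287).

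The PDGF ligands split into 2 higher and 2 lower. Pdgfd, whose product must be cut before it is active, stood at 21.99, 26.1, 20.3, 25.7 and 15.1 CPM in the astrocyte fraction, against 4.01, 3.53, 3.57, 2.87 and 2.97 CPM in the input. It was 6.27-fold higher with no overlap, a log2 fold change of 2.65 ± 0.17 (SE, edgeR adjusted p = 1.56e-08). Pdgfc encodes the other ligand of this kind and stood at 11.7, 15.3, 14.1, 12.9 and 12.3 CPM in the astrocyte fraction, against 5.03, 3.95, 5.34, 5.03 and 3.40 CPM in the input, a log2 fold change of 1.52 ± 0.14 (SE, edgeR adjusted p = 1.58e-06) without overlap. Pdgfa encodes the growth factor of oligodendrocyte precursors and stood at 16.97, 17.6, 36.8, 12.8 and 20.1 CPM in the astrocyte fraction, against 64.2, 53.2, 59.6, 60.04 and 61.5 CPM in the input. The groups did not overlap, and the astrocyte fraction library 976 was the highest of its group, at a log2 fold change of -1.50 ± 0.26 (SE, edgeR adjusted p = 0.000121). Of its exon bases, 26.1% are shared with 6330403L08Rik on the opposite strand. Pdgfb, known from endothelium, averaged 8.64 ± 5.05 CPM in the astrocyte fraction and 14.8 ± 1.49 CPM in the input (SD, n = 5 each), a log2 fold change of -0.73 ± 0.35 (SE, edgeR adjusted p = 0.0411). The Pdgfb call was lost in 8 of the 10 fits that left out 1 library (adjusted p from 0.0664 to 0.0962) and kept with the astrocyte fraction library 976 left out (-1.03, adjusted p = 0.000516) and without the numbers 976 and 982 (-1.19, adjusted p = 0.000729).

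Of the VEGF ligands, Vegfb and Vegfa were higher. Vegfb, whose product binds the receptor FLT1, stood at 262, 256, 224, 282 and 268 CPM in the astrocyte fraction, against 93.7, 84.6, 94.9, 79.7 and 85.2 CPM in the input. Here too the groups stood apart, with a log2 fold change of 1.56 ± 0.07 (SE, edgeR adjusted p = 2.08e-09), and per kb of exon it had the highest mean of the 63 genes in the input (161 ± 13.4 CPM per kb in the astrocyte fraction and 54.6 ± 4.05 CPM per kb in the input, SD, n = 5 each). In the input library 976, Igfbp2 was above it, at 67.1 CPM per kb, where Vegfb had 59.2. Vegfa, the main driver of vessel growth, averaged 139 ± 19.5 CPM in the astrocyte fraction and 82.7 ± 20.8 CPM in the input (SD, n = 5 each) and was higher at all 5 numbers, a log2 fold change of 0.75 ± 0.18 (SE, edgeR adjusted p = 0.000801) with overlapping groups. Scaled to total counts its log2 fold change was 0.46 (adjusted p = 0.0117). Vegfc, the lymphatic vessel factor, averaged 2.03 ± 0.495 CPM in the astrocyte fraction and 1.802 ± 0.322 CPM in the input and was not called (log2 fold change 0.18 ± 0.18 SE, edgeR adjusted p = 0.492). Of the VEGF receptor genes, Flt1 averaged 28.5 ± 6.72 CPM in the astrocyte fraction and 38.6 ± 6.69 CPM in the input (SD, n = 5 each). Kdr averaged 4.28 ± 1.84 CPM in the astrocyte fraction and 7.36 ± 0.653 CPM in the input, and Flt4 1.88 ± 1.11 and 3.77 ± 0.573 CPM. Their log2 fold changes were -0.44, -0.71 and -1.11 (edgeR adjusted p = 0.0393, 0.0193 and 0.0112). All were thus called as lower, with overlapping groups. These genes were chosen for mention after the values were seen.

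The angiopoietins, which act on the endothelial receptor TIE2, moved in opposite directions. Angpt1 encodes its activating ligand (ENSMUSG00000022309, mm10 chromosome 15, 42424723 to 42676977) and stood at 28.9, 34.3, 20.97, 28.4 and 29.98 CPM in the astrocyte fraction, against 6.46, 6.57, 5.34, 6.49 and 5.84 CPM in the input. It was 4.57-fold higher with no overlap, a log2 fold change of 2.19 ± 0.13 (SE, edgeR adjusted p = 1.04e-08), and 14.2% of its exon bases are shared with Gm17473 on the opposite strand. Angpt2 encodes the ligand that can block the receptor and stood at 0.816, 3.23, 2.15, 0.641 and 0.723 CPM in the astrocyte fraction, against 3.23, 8.36, 3.35, 2.99 and 3.40 CPM in the input. It was lower at all 5 numbers, while the astrocyte fraction library 92 lay within the input range, at a log2 fold change of -1.64 ± 0.52 (SE, edgeR adjusted p = 0.00629). Tek, the gene of TIE2, and its relative Tie1 were not called. Their log2 fold changes were -0.18 ± 0.14 and -0.40 ± 0.21 (SE, edgeR adjusted p = 0.325 and 0.0886). Met, the gene of the HGF receptor, stood at 0.694, 0.587, 0.718, 0.770 and 0.769 CPM in the astrocyte fraction, against 1.93, 2.04, 1.22, 3.91 and 1.10 CPM in the input. It was low in both groups, and lower in the astrocyte fraction without overlap, a log2 fold change of -1.39 ± 0.32 (SE, edgeR adjusted p = 0.00247). Hgf was not analysed here.

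Angiopoietin-like proteins share a fold with angiopoietins but do not bind TIE2. Angptl4, which encodes an inhibitor of lipoprotein lipase (ENSMUSG00000002289, mm10 chromosome 17, 33773750 to 33781575), stood at 24.8, 17.6, 16.2, 29.2 and 20.8 CPM in the astrocyte fraction, against 3.82, 2.07, 2.80, 2.45 and 2.41 CPM in the input. It was 7.85-fold higher with no overlap, a log2 fold change of 2.97 ± 0.21 (SE, edgeR adjusted p = 4.11e-08). Angptl6 averaged 6.94 ± 1.08 CPM in the astrocyte fraction and 4.35 ± 0.790 CPM in the input (SD, n = 5 each), a log2 fold change of 0.66 ± 0.16 (SE, edgeR adjusted p = 0.00584). Its call was lost with scaling to total counts (0.37, adjusted p = 0.0903), and 16.8% of its exon bases are shared with A230050P20Rik on the opposite strand. In the astrocyte fraction, Angptl2 had 67.9 CPM at number 976 and 1.76 to 11.3 CPM at the other 4, against 13.1 CPM at 976 and 2.54 to 3.72 CPM at the others in the input. It was not called (log2 fold change 1.83 ± 1.02 SE, edgeR adjusted p = 0.138), and without the numbers 976 and 982 the value was 0.23 (adjusted p = 0.554). Angptl1 was not called either (log2 fold change 0.19 ± 0.43 SE, edgeR adjusted p = 0.675).

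The last 4 tested genes carry a family symbol without being ligands or receptors of it. Pdgfrl, which encodes a receptor-like protein without a kinase, stood at 5.75, 6.75, 4.31, 6.29 and 6.06 CPM in the astrocyte fraction, against 1.90, 1.31, 1.81, 0.541 and 1.27 CPM in the input. It was higher with no overlap, a log2 fold change of 2.01 ± 0.32 (SE, edgeR adjusted p = 3.65e-05). Fgfr1op and Fgfr1op2, named after fusion partners of FGFR1 in human leukaemia, had log2 fold changes of -0.67 ± 0.23 (SE, edgeR adjusted p = 0.00936) and -0.19 ± 0.08 (SE, edgeR adjusted p = 0.0444). The Fgfr1op call was lost without the numbers 976 and 982 (adjusted p = 0.172). The Fgfr1op2 call was lost without any 1 of 9 libraries, with adjusted p from 0.0607 to 0.243. Igf2bp2, the gene of an RNA-binding protein, was not called (log2 fold change 0.94 ± 0.57 SE, edgeR adjusted p = 0.0906). It was called without the numbers 976 and 982 (1.92, adjusted p = 0.00889), with the astrocyte fraction library 982 left out (adjusted p = 0.0446), or the input library 976 (0.0347).

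Among the 4 genes that did not pass the filter were Fgf17, Vegfd and Angptl7. Fgf17 had 0, 0, 4, 3 and 7 counts in the astrocyte fraction, against 41, 16, 19, 19 and 6 counts in the input, and Vegfd had 0, 0, 4, 0 and 4 counts in the astrocyte fraction, against 22, 13, 13, 11 and 6 counts in the input. Both had more counts in the input as a group. Angptl7 had 8, 1, 2, 2 and 1 counts in the astrocyte fraction, against 18, 14, 6, 21 and 6 counts in the input. With no filter on low counts all 3 were called as lower, with log2 fold changes of -1.78 for Fgf17 (edgeR adjusted p = 0.00769), -1.69 for Vegfd (0.00646) and -1.23 for Angptl7 (0.0270), values that rest on counts near the floor.

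The make-up of each family was compared between the groups by the length-scaled level (CPM per kb of exon), as a description. Fgfr3 made up 70.6% ± 2.50 in the astrocyte fraction and 51.7% ± 4.07 in the input of the summed FGF receptor level (SD, n = 5 each). The Fgfr2 share was 4.14% ± 0.427 in the astrocyte fraction and 14.9% ± 1.40 in the input. Erbb3 took 1.73% ± 0.894 in the astrocyte fraction and 42.8% ± 5.42 in the input of the EGF family receptor level, whereas Egfr took 38.9% ± 4.08 in the astrocyte fraction and 10.5% ± 1.36 in the input and Erbb4 39.98% ± 3.49 in the astrocyte fraction and 41.1% ± 7.68 in the input. In the EGF family, Erbb3 and Erbb4 together held most of the input level and Egfr and Erbb4 most of the level in the astrocyte fraction.

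Ligand make-up was dominated by 1 gene in several families. Fgf1 made up 90.9% ± 2.19 in the astrocyte fraction and 50.1% ± 3.15 in the input of the secreted FGF level. Fgf9 made up 0.946% ± 0.309 in the astrocyte fraction and 15.4% ± 2.79 in the input. Hbegf was the largest of the EGF family ligands in the astrocyte fraction, at 66.7% ± 7.43 in the astrocyte fraction and 19.7% ± 0.685 in the input, while Tgfa made up 13.9% ± 8.31 in the astrocyte fraction and 32.5% ± 4.32 in the input. Of the PDGF ligands, Pdgfd held 38.98% ± 10.5 in the astrocyte fraction and 4.36% ± 0.559 in the input, and Pdgfa 35.6% ± 8.49 in the astrocyte fraction and 77.6% ± 1.79 in the input. Vegfb led the VEGF ligands in both groups, with 82.9% ± 0.940 in the astrocyte fraction and 73.1% ± 5.80 in the input.

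**Figure D4:**
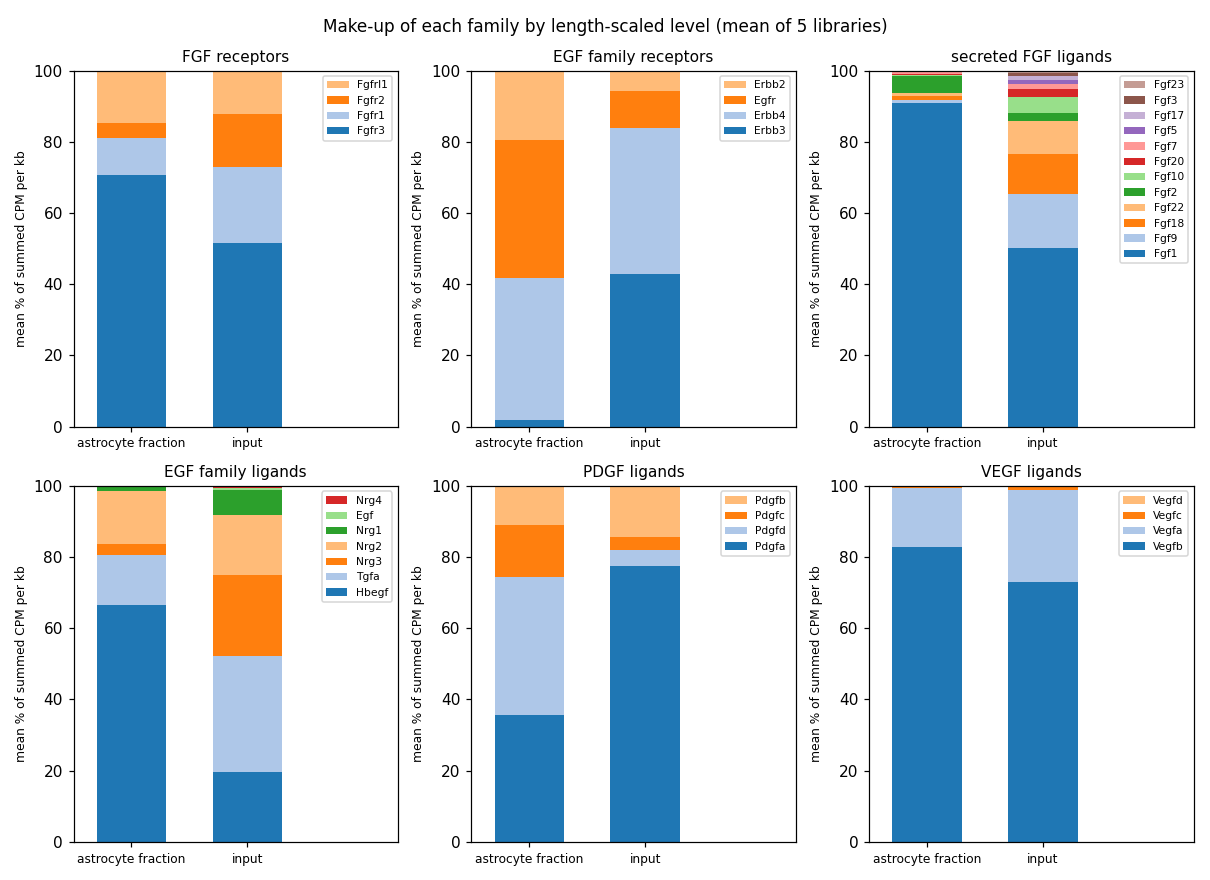
Mean share (percent) of each gene in the summed CPM per kb of its family, as stacked bars for the astrocyte fraction (left) and the input (right), over 5 libraries of each group. Erbb3 takes 1.73% of the EGF family receptor level in the astrocyte fraction and 42.8% in the input, and Fgf1 takes 90.9% and 50.1% of the secreted FGF level.

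A few genes varied more between libraries than the rest. Among the 38 genes with a mean of at least 5 CPM in the astrocyte fraction, the median coefficient of variation was 18.9%, and Angptl2, Igf2, Igfbp2, Pdgfb and Tgfa exceeded 50%. Among 40 such genes in the input the median was 13.5%, and Angptl2, Igf2 and Igfbp2 exceeded 50%. Each of these 5 genes except Igf2 had its highest astrocyte fraction value in library 976, and Igf2 its second highest. Ttr, the transthyretin gene of choroid plexus, was at 11036 and 2312 CPM in the astrocyte fraction libraries 976 and 982 and at 2965 and 604 CPM in the input libraries, against 0.334 to 11.5 CPM elsewhere. Markers of meningeal and perivascular fibroblasts summed to 235, 75.7, 228, 59.6 and 100.1 CPM in the astrocyte fraction, against 97.0, 52.9, 109, 45.4 and 79.0 CPM in the input. The libraries 88 and 976 were the highest in each group for both Igf2 and this sum, and none of the 7 choroid plexus and 9 fibroblast markers in the table was at 0 over a whole group. The part of these tissues in the values was not tested.

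**Figure D5:**
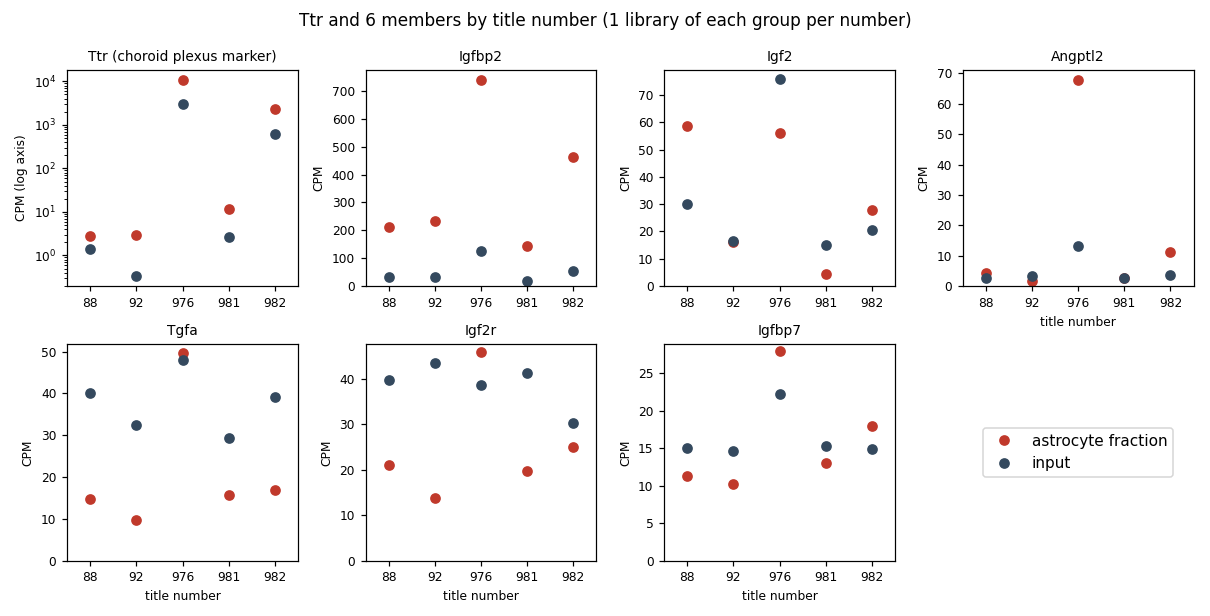
CPM of Ttr (log axis) and of 6 genes (linear axes from 0) by title number, with 1 point for the astrocyte fraction and 1 for the input at each number. Ttr reaches 11036 CPM in the astrocyte fraction library 976, where Igfbp2, Angptl2, Tgfa, Igf2r and Igfbp7 also have the highest value of their group.

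Other genes of these pathways, taken from lists of partners outside the families, went both ways. Of 12 tested partner receptors and coreceptors, 4 were higher, 5 were lower and 3 did not pass, and the median log2 change was -0.29. These shares, 33.3% higher and 41.7% lower, were near the 33.1% and 37.5% of all tested genes. The semaphorin and VEGF coreceptor Nrp1 (1.78) and the FGF receptor partner Flrt1 (1.03) were higher, and Flrt3 (-1.98) was lower. Of 15 genes of ligand release and binding protein cleavage, 6 were higher, 4 were lower and 5 did not pass, around a median of 0.27, or 40.0% higher and 26.7% lower. The secreted protease Htra1, known to cut IGF binding proteins, averaged 1181 ± 86.5 CPM in the astrocyte fraction and 161 ± 10.5 CPM in the input (SD, n = 5 each), a log2 fold change of 2.87 ± 0.06 (SE, edgeR adjusted p = 5.08e-11). Adam17, the sheddase that frees HB-EGF and TGF-alpha, averaged 40.2 ± 2.80 CPM in the astrocyte fraction and 16.8 ± 1.53 CPM in the input, and its partner Rhbdf1 also rose (1.25 and 1.82 on the log2 scale).

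Of 10 receptor brakes, 2 were higher, 7 lower and 1 did not pass, around a median of -0.55. The shares were 20.0% higher and 70.0% lower, against 33.1% and 37.5% of all tested genes. Lrig1, whose product promotes breakdown of EGF family receptors, averaged 1021 ± 91.99 CPM in the astrocyte fraction and 117 ± 3.31 CPM in the input (SD, n = 5 each), a log2 fold change of 3.13 ± 0.06 (SE, edgeR adjusted p = 5.08e-11). Grb10 (-2.28) and Sh2b3 (-1.31), adaptors that dampen receptor signals, were lower. Of 34 adaptors and proximal signalling genes, 14 were higher, 12 were lower and 8 did not pass, around a median of 0.20. Their shares, 41.2% higher and 35.3% lower, stood beside the same 33.1% and 37.5%. Akt2 (2.19) and the PI3 kinase subunit Pik3r1 (1.45) were higher, and the neuronal adaptor Shc2 (-2.45) was lower. The EGF family ligands outside the symbols searched had 1 of 4 genes in the table, Btc, which did not pass the filter.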

How the data were processed

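RNA of 10 libraries was measured by polyA RNA-seq from 25 ng of total RNA per the labels' protocols. The deposited table holds expected counts per gene from the authors, and log2 values that the authors normalized and centred per gene on the input. Build mm10, CASAVA 1.8 and DESeq are named per the submitters' processing notes, without roles. For the aligner, the counter and the strand setting, the sources used here give nothing. Reads of overlapping genes on either strand therefore cannot be told apart. A test on the table showed that all 18464 genes have at least 5 counts in every library of 1 or both groups.

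Expected counts were rounded, scaled by TMM, filtered with filterByExpr (minimum count 10) and tested with edgeR 4.0.16 (robust quasi-likelihood fit, R 4.3.3), with Benjamini-Hochberg adjustment over all 17672 tested genes and a threshold of 0.05. CPM values are TMM-scaled, and levels between genes were divided by exon length from GENCODE M21. SE values were computed from the log2 CPM of the libraries of each group, unpaired, and not by the edgeR fit. The procedure was run on simulated counts in which few genes were changed, in equal numbers up and down. That could not test the scaling for a contrast in which 70.6% of tested genes were called. Genes and lists were chosen with earlier results of these data known. Values in every library are given for called genes with a log2 fold change of at least 1 in size and for the main receptors. Pathway lists are given by counts and up to 3 called genes of smallest adjusted p. The VEGF and angiopoietin receptors are also named, a choice made after the values were seen. The pair of PDGF receptor genes was left out by the rule on symbols. The values of 1 untested gene are not reported here.

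Alternatives were DESeq2 1.42.0, RLE and total count scaling, 2 other filters, the deposited log2 values with limma 3.58.1, the title number as a replicate block, each library left out, and the numbers 976 and 982 left out. Libraries of the same title number deviated together from their group means, so the numbers pair the libraries. The correlation was 0.189 to 0.493 for the 5 numbers, against a mean of -0.079 for other pairs. The main fit did not use this pairing. With the block, 8 receptors were higher and 3 lower, and 8 ligands were higher and 17 lower. Values with the block are given where they change a call.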

Additional observations from a re-analysis of the deposited data

Results flagged for a closer look

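In groups of 5, the highest or lowest library is listed here where its gap to the next exceeded Dixon's 95% critical value. Some such values arise by chance among this many groups. Number 976 supplied 6 of 11: Angptl2 at 67.9 CPM in the astrocyte fraction (next 11.3) and 13.1 CPM in the input (next 3.72), Tgfa at 49.7 CPM in the astrocyte fraction (next 16.8), and Igf2 at 75.7, Igfbp7 at 22.2 and Egf at 2.76 CPM in the input. Choroid plexus markers were also highest at this number in both groups, and their part in these values was not tested.

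Number 92 supplied 3. Igf1 stood at 7.04 CPM, the highest, and Nrg3 at 3.81 CPM, the lowest, in its shallow astrocyte fraction library. Angpt2 stood at 8.36 CPM in its input library, against 3.40 CPM in the next. The input library 981 was the lowest for Nrg2, at 8.44 CPM, and for Pdgfb, at 12.1 CPM.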

How the results depend on the processing

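Of 48 called genes, 40 kept call and direction in each of the 18 alternatives that tested them, and 32 of these were tested in all 18. The filter at a mean of 5 CPM left 10 called genes untested. The counts over the 63 genes ranged from 20 to 25 higher and from 17 to 28 lower. With the replicate block, which pairs libraries by title number, 23 were higher and 28 lower, and beside Tgfa, Igf2r and Igfbp6 it changed no other call among them. The genes that changed sign were all uncalled. Angptl1 was at -0.071 with total count scaling and -0.16 without the numbers 976 and 982. Igf2 was at -0.19 with limma, -0.011 with a filter at a mean of 5 CPM, -0.20 with total count scaling, -0.099 with the block, and -0.24 to 0.69 with 1 library left out. Igfbp7 was at 0.017 with no filter and -0.22 to 0.13 with 1 library left out. Nrg2 and Vegfc were at -0.15 and -0.085 with total count scaling. The causes were not tested. Depth limits the low ligands most, since the astrocyte fraction library 92 had 7 of the 63 genes at 0.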
